A study of Oryctolagus cuniculus with 57 samples.

Results

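Rabbit kits eat fecal pellets that the doe leaves in the nest, and the comparison described here asks how the ileum of kits at the age of weaning differed with and without access to such pellets. It covers 19 of the 57 arrays of the series, all from day 35: 10 FF rabbits, whose nests received fecal pellets of unrelated does not given antibiotics in place of the maternal pellets, and 9 NF rabbits, which were kept from ingesting feces in the nest. All were commercial hybrid kits of either sex, reared by their own dams with suckling once a day, and each gave 1 RNA sample from ground ileum for 1 one-colour array. Members were taken from the group and day in the labels, and rabbits carry the labels' names (lap and a number). A further NF array of day 35, of rabbit lap78, was left out, as the study set it aside. Pellets were given by nest, but neither litter nor sex is labelled, so rabbits were treated as independent and littermates would make the p-values too small. At day 49 there were 9 FF and 9 NF rabbits, and FFab, with pellets of does given tetracycline and tiamulin, had 10 rabbits at day 35.

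At weaning the small intestine passes from milk to plant feed while its microbes multiply. In this wall, absorptive cells take up nutrients and, in the ileum, bile acids, and interferons, class I peptide presentation, cytokines and intraepithelial lymphocytes form much of the defence against viruses and bacteria. Whole-wall RNA also holds muscle, vessels and blood, and in such a sample fewer cells of a type and less RNA per cell cannot be told apart.

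The share of spots well above background was 66.0% to 79.3% in FF and 66.0% to 79.2% in NF, no array repeated another, and 8 slides held both groups. On most of these slides each group had a single rabbit. Counts over slides below use the same values as the fold changes and are not further evidence for them. Of 7 genes asked as a check of the tissue, 6 were measured, and all 6 stood above background on every one of the 19 arrays. The absorptive cell cadherin CDH17 lay between 13.17 and 14.60 on the log2 scale of normalized intensity in all 19.

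The ileal bile acid genes, however, set some NF rabbits apart. FABP6, the carrier protein for bile acids inside ileal cells, had a log2 level of 9.46 in NF rabbit lap93 and of 17.71 to 19.29 in the other 18 rabbits. SLC10A2, the transporter that takes bile acids up from the ileal lumen, was at 4.58 in NF rabbit lap93, 8.08 in NF rabbit lap113 and 10.35 in NF rabbit lap80, under the lowest FF rabbit (11.11), and the highest rabbit of all was an FF rabbit at 13.06. SLC51A, also among the genes asked, was at 10.96 in lap93, 11.76 in lap113 and 11.99 in lap80. It was also under the lowest FF rabbit (12.55) in NF rabbits lap79 (12.09) and lap83 (12.45), and the other NF rabbits lay at 13.41 to 13.63. NF rabbit lap93 thus goes against the ileal markers, and the part of this in the results below was not tested. Rabbit lap78, left out, had a FABP6 level of 9.31 and an SLC10A2 level of 2.57. Counts, some list medians and some of the genes that moved most are therefore also given without NF rabbit lap93. Some are given without NF rabbits lap80, lap93 and lap113, a setting that keeps lap79 and lap83. Where neither is given, the part of these rabbits is not described. FABP1 was at 17.25 to 18.32 in NF rabbits lap77, lap80, lap93 and lap113. It was at 18.28 in FF rabbit lap88 and 17.40 in FF rabbit lap90, and at most 16.05 in the others. A separate pair stands apart in interferon-stimulated genes: FF rabbit lap102 and NF rabbit lap94.

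limma tested 7974 genes, and calls needed a Benjamini-Hochberg adjusted p below 0.05 together with a difference of more than 0.5 on the log2 scale. This gave 3 calls, 0.0376% of all, each lower in FF: LSMEM1, LRP2BP and DNAI7. Without a correction, 320 genes (4.01%) were lower in FF at p under 0.05 and 293 (3.67%) higher, and 50.4% of all genes lay lower in FF whatever their p. The median log2 fold change was 0.00 (FF minus NF in all that follows), with an interquartile range of -0.11 to 0.10. At day 49 the same contrast called 0 genes with limma, with 92 (1.15%) at an unadjusted p under 0.05. The difference between the contrasts of the ages called 0 genes, with 362 (4.54%) at an unadjusted p under 0.05.

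The probes behind the 3 calls are shown since each call rests on the oligonucleotide that was read. The capitals in the LSMEM1 probe mark the 56 bases that all 5 probes of this gene share, and positions are on the build oryCun2 of the file headers.
LSMEM1, chr7:49517802-49517861, plus strand: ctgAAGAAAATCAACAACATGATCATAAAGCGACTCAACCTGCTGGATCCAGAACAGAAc
LRP2BP, chr2:62830708-62833379, minus strand: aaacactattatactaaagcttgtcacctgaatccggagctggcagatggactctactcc
DNAI7, chr8:14976551-14976610, plus strand: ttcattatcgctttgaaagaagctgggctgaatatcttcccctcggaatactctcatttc
The 60 bases of the LRP2BP probe are spread over 2672 bases of genome, and the other probes over 60. Whether they lie in coding sequence or a UTR was not analysed here.

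LRP2BP, a partner protein of the endocytic receptor megalin, had log2 levels of 3.83 at the lowest, 4.90 at the median and 5.59 at the highest in FF, and of 5.16, 6.12 and 6.77 in NF. Of the 10 FF rabbits, 9 lay below every NF rabbit, and within each of the 8 slides the FF mean was lower. The log2 fold change was -1.31 ± 0.28 (SE; limma, adjusted p = 0.0428; two-sided exact permutation test, p = 4.33e-05, where the smallest possible is 2.17e-05). It stood above background on 8 of 10 FF and 9 of 9 NF arrays. At day 49 the log2 fold change was -0.07 ± 0.28. In the authors' table of normalized values the day 35 difference was smaller, at -0.75.

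DNAI7, a protein tied to the dynein arms of motile cilia, ranged from 6.38 through a median of 6.64 to 7.10 in FF and from 6.93 through 7.41 to 8.02 in NF. The groups overlapped little, as 8 FF rabbits lay below every NF rabbit, and FF was lower in 8 of 8 slides. Its log2 fold change was -0.76 ± 0.16 (SE; limma, adjusted p = 0.0428; exact permutation test, p = 5.41e-05), against 0.09 ± 0.16 at day 49. The 12 measured genes of the list of cilia, to which it belongs, had a median of 0.02.

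LSMEM1, a small membrane protein, was dim. FF rabbits lay at 2.02 to 4.65 (median 2.61) and NF rabbits at 2.04 to 7.06 (median 5.49), with 1 of 10 FF and 7 of 9 NF arrays above background. NF rabbit lap84 was as low as the lowest FF rabbits, and 1 of 10 FF rabbits lay below every NF rabbit. LSMEM1 met the filter on low values in NF at day 35, where it was higher, and not in FF at day 35. The size of its difference thus rests on FF values that mostly did not stand above background. The log2 fold change was -2.27 ± 0.46 (SE; limma, adjusted p = 0.0428), -1.74 to -2.46 over its 5 overlapping probes and -0.88 in the authors' table. At day 49 it was 0.47 ± 0.47. For day 35 the exact permutation test gave p = 0.00204, larger than for the other calls.

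The 3 calls were not firm. With the slide as a fixed block limma called 0 genes (802 at an unadjusted p under 0.05), as it did in the authors' table (896) and with another background correction, scaling, filter or choice of probe. Leaving out 1 rabbit at a time gave 0 calls in 13 of 19 fits and 1 to 12 in the others: DNAI7 was called in 5 of 19 such fits, LSMEM1 in 4 and LRP2BP in 2. Without NF rabbit lap84, 12 genes passed (5 lower and 7 higher in FF), FGF19 among them at 2.48. Without NF rabbit lap93, 1 gene passed (DNAI7, -0.83 ± 0.16; limma, adjusted p = 0.0289), and without NF rabbits lap80, lap93 and lap113, 0 passed (limma; 544 at an unadjusted p under 0.05), with log2 fold changes of -1.13 for LRP2BP, -0.81 for DNAI7 and -1.92 for LSMEM1. In FFab against NF, which shares the NF arrays, the values were -0.39, -0.29 and -0.72.

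**Figure D1:**
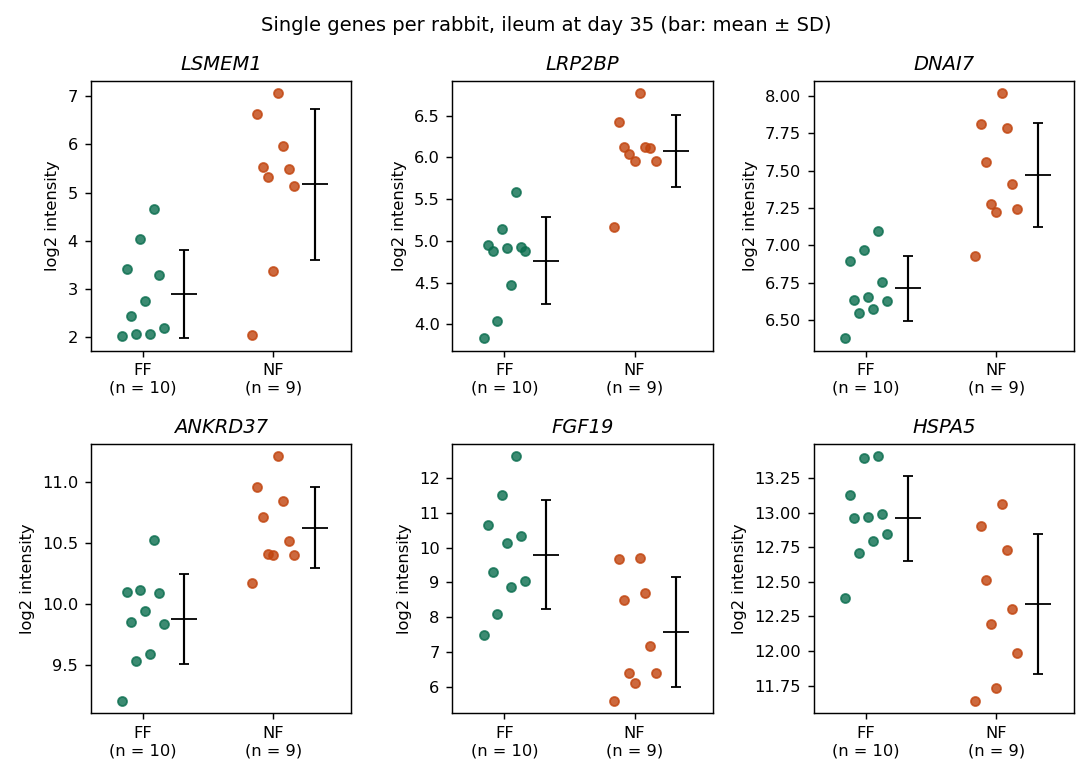
Log2 normalized intensity of 6 genes in each of the 10 FF and 9 NF rabbits of day 35 (points) with the mean and SD beside them. For LRP2BP and ANKRD37, 9 of 10 FF rabbits lie below every NF rabbit, while FGF19 and HSPA5 lie mostly higher in FF and overlap.

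Around LRP2BP on chromosome 2, the genes measured within 100 kb did not move alike. ANKRD37, an ankyrin repeat gene known for its induction by low oxygen, is read 22.5 kb away and lay at 9.20 to 10.53 in FF (median 9.90) and 10.17 to 11.22 in NF (median 10.52), so that 9 FF rabbits were below every NF rabbit. Its log2 fold change was -0.75 ± 0.27, and its 5 probes gave -0.68 to -0.75 (limma, adjusted p = 0.402; exact permutation test, p = 2.38e-04, unadjusted). UFSP2, a protease of the UFM1 system, is read 23.2 kb away at 0.04 ± 0.06, CCDC110 at 0.06 ± 0.22 and CFAP96 at -1.03 ± 0.54, with 2 FF and 7 NF arrays above background for CFAP96 and a value of -0.46 in the authors' table. CCDC110 was at -0.11 there. IFRD1, a transcription regulator 31.1 kb from LSMEM1, had -0.30 ± 0.14. UFSP2, CCDC110, CFAP96 and IFRD1 were chosen after their values were seen.

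**Figure D2:**
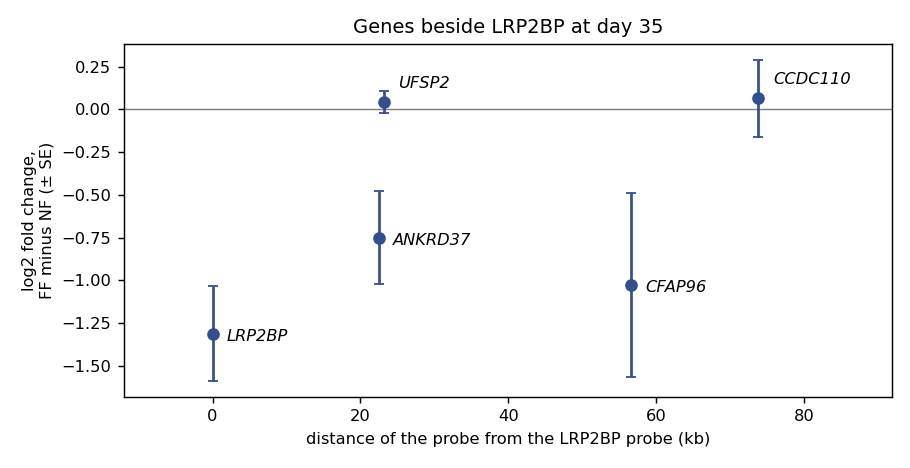
Log2 fold change, FF minus NF at day 35, with its SE (vertical axis), against the distance of the probe from that of LRP2BP in kb (horizontal axis). LRP2BP (-1.31), CFAP96 (-1.03) and ANKRD37 (-0.75) lie below 0, and UFSP2 (0.04) and CCDC110 (0.06) lie just above it.

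Most immune genes of the lists used here lay lower in FF. The lists and their members were chosen with earlier results of these data known. The shares set against all genes below therefore describe this direction and are not independent evidence for it. Over 16 lists of immune genes, 150 of the measured members lay lower in FF and 57 higher (72.5% lower, against 50.4% of all genes). At an unadjusted p under 0.05, 21 of them were lower (10.1%, against 4.01% of all genes) and 0 higher (against 3.67%), but none passed the limma test after adjustment. All 16 lists had a median below 0, from -0.01 to -0.33. At day 49 this was so for 5 lists, with 34.3% of these genes lower (against 53.3% of all genes). In FFab against NF at day 35, which shares the NF arrays, most of these medians were also below 0. They were -0.42 for B cells and plasma cells, -0.24 for chemokines, -0.23 for T cells and -0.18 for IgA genes. Cytokines were at -0.09, and class I and cytotoxic lymphocyte genes at -0.04. Above 0 were interferon-stimulated genes (0.02) and antimicrobial genes (0.01). No test was made of a list as such, and genes of a list share the rabbits. Some genes here are named through tables of the study that were chosen in part on these FF arrays. Among them are ACTN2, CD96, EGLN3, FGF19, GZMH, LAMB3, NPL, UBD, UTP15 and 1 class I gene. Without such genes, 126 immune genes lay lower and 45 higher, and 17 were lower at an unadjusted p under 0.05.

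The share that lay lower stayed between 62.8% and 77.8% as each rabbit was left out in turn, while the number lower at an unadjusted p under 0.05 went from 9 to 29. It was 9 without NF rabbit lap93 (4.35%, against 3.49% of all genes), 9 without FF rabbit lap89, 10 without NF rabbit lap94, 11 without NF rabbit lap80, 13 without FF rabbit lap87 and 29 without FF rabbit lap102. Without NF rabbits lap80, lap93 and lap113 it was 8 (3.86%, against 3.00%), although 74.9% of the genes still lay lower. With rabbit lap78 added, 63.8% lay lower. Scaling each array to its 75th percentile gave 67.1% for the immune genes and 40.5% for all genes. The number of immune lists with a median below 0 was 13 to 16 over these settings. Within slides, the FF list mean was lower in 7 of 8 for sensors, interferon transcription factors and receptors, and complement. It was 6 of 8 for class I and interferon-stimulated genes. Cytokines, chemokines, cytotoxic lymphocytes, neutrophils and mast cells, and antimicrobial genes had 5 of 8. T cells, IgA, MHC class II, macrophages and inflammation had 4 of 8, and B cells 3 of 8.

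**Figure D3:**
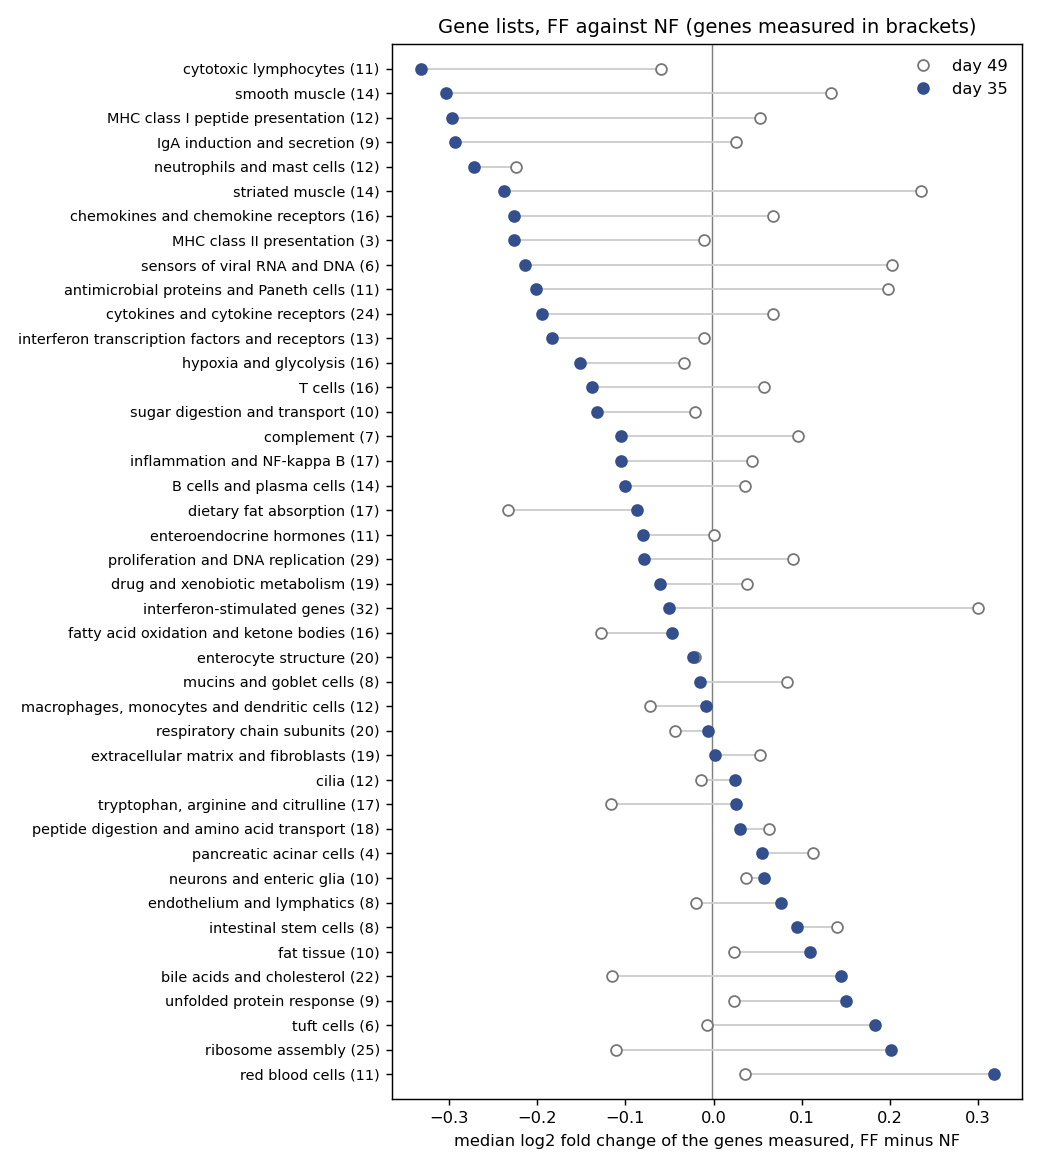
Median log2 fold change, FF minus NF, of the measured genes of 42 lists (their number in brackets) at day 35 (filled) and day 49 (open). The vertical line is the median of all genes at day 35. All 16 immune lists lie left of it at day 35, and the list of ribosome assembly lies at 0.20 at day 35 and at -0.11 at day 49.

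Genes that process and present peptides on MHC class I had a median of -0.30. Of 12 measured, 10 lay lower in FF (against 50.4% of all genes) and 6 were lower at an unadjusted p under 0.05 (against 4.01%). TAP1, a subunit of the pump that carries peptides to class I molecules, had levels of 9.03 to 10.99 in FF (median 9.77) and 9.84 to 12.03 in NF (median 10.04). Thus 7 FF rabbits lay below every NF rabbit, while NF rabbits lap80, lap93 and lap94 were the highest of all. Its log2 fold change was -0.71 ± 0.32 (limma, adjusted p = 0.589; exact permutation test, p = 0.0548). PSMB8 (-0.70 ± 0.29) and PSMB9 (-0.68 ± 0.32), subunits of the immunoproteasome, RLA-A2, a heavy chain of class I (-0.49 ± 0.22), ERAP1, which trims peptides (-0.43 ± 0.20) and TAPBPL, a peptide editor (-0.31 ± 0.15), made up the rest. B2M, the light chain of class I, was at -0.15 ± 0.18. Without NF rabbits lap80, lap93 and lap113 TAP1 was at -0.38, PSMB8 at -0.45, PSMB9 at -0.40, RLA-A2 at -0.29, ERAP1 at -0.19, TAPBPL at -0.16 and B2M at 0.02.

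Averaged over the list, with 0 as the mean of the 19 rabbits, FF rabbits lay at -0.86 to 0.58 (mean -0.16 ± 0.39 SD, n = 10) and NF rabbits at -0.26 to 1.02 (0.18 ± 0.45, n = 9). The highest were NF rabbits lap93 (1.02) and lap80 (0.64) and FF rabbit lap102 (0.58), and FF rabbit lap89 was the lowest. The 6 genes at an unadjusted p under 0.05 became 0 without NF rabbit lap93, with a median of -0.22, and also 0 without FF rabbit lap89 or with rabbit lap78 added. They became 1 without FF rabbit lap87, NF rabbit lap80 or NF rabbit lap94, and 8 without FF rabbit lap102. Without NF rabbits lap80, lap93 and lap113 the median was -0.17. At day 49 the median was 0.05. Without the 1 member that only the study's tables name, 9 of 11 lay lower at day 35, with a median of -0.28. Of these, 5 were at an unadjusted p under 0.05.

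Among cytokines and their receptors, 20 of 24 lay lower (median -0.19) and 6 were lower at an unadjusted p under 0.05. Over all genes these shares were 50.4% and 4.01%. IL15, which maintains intraepithelial lymphocytes, lay at 7.72 to 9.19 in FF (median 8.70) and 8.53 to 10.07 in NF (median 9.53), with 5 FF rabbits below every NF rabbit. The log2 fold change was -0.78 ± 0.24 (limma, adjusted p = 0.263; exact permutation test, p = 0.0106), and its 7 probes gave -0.70 to -0.79. IL17B, of the interleukin 17 family, was at -0.70 ± 0.22, with an exact permutation p of 8.88e-04 that is not adjusted. IL4, a type 2 cytokine, was at -0.80 ± 0.38, the death ligand TNFSF10 at -0.89 ± 0.44, CSF2, a growth factor of myeloid cells, at -0.53 ± 0.25 and IL18, which activates lymphocytes, at -0.31 ± 0.14. Without NF rabbit lap93 the count was 3 and without NF rabbits lap80, lap93 and lap113 it was 2, with IL15 at -0.69 and -0.65. In the second setting IL4 was at -0.33, CSF2 at -0.29 and IL18 at -0.17. With rabbit lap78 added, IL15 was at -0.36, CSF2 at -0.30, IL4 at -1.28 and IL18 at -0.49. At day 49 IL15 was at 0.11 ± 0.24 and IL17B at 0.37 ± 0.22. At day 35 IL4 stood above background on 7 of 10 FF and 9 of 9 NF arrays, so its difference rests in part on dim FF values.

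**Figure D4:**
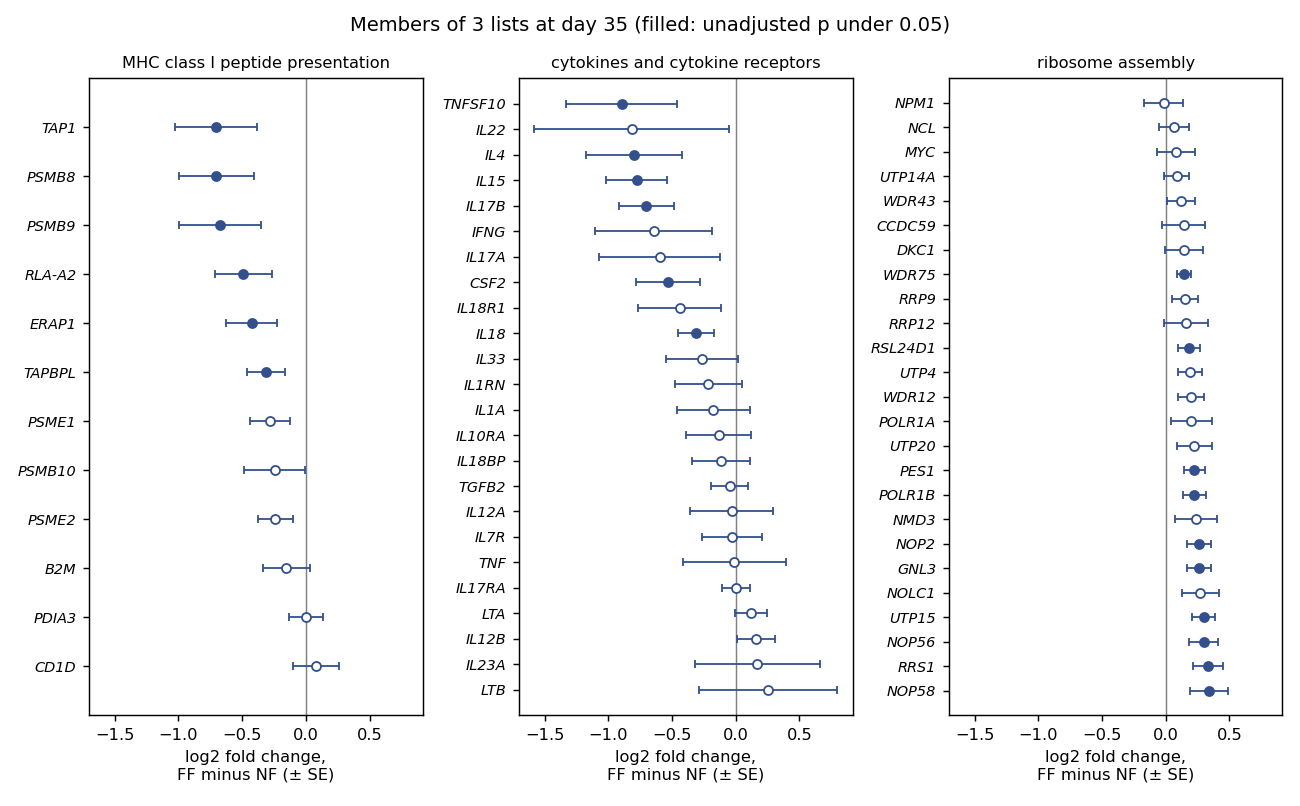
Log2 fold change, FF minus NF at day 35, with its SE, for each measured gene of 3 lists (filled points: unadjusted p under 0.05). Class I and cytokine genes lie mostly below 0, with 6 filled points each, and 24 of 25 ribosome assembly genes lie above 0, with 10 filled.

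Chemokines and their receptors had a median of -0.23, with 12 of 16 lower (against 50.4% of all genes) and 1 at an unadjusted p under 0.05 (against 4.01%). Without genes that only the study's tables name it was -0.10, with 9 of 13 lower. With all 16 genes it was -0.20 without NF rabbit lap93 and -0.37 without NF rabbits lap80, lap93 and lap113. XCR1, the receptor that marks cross-presenting dendritic cells, lay at 6.81 to 8.07 in FF (median 7.76) and 7.84 to 9.64 in NF (median 8.29), and 6 FF rabbits were below every NF rabbit. It was the 1 member at an unadjusted p under 0.05, at -0.79 ± 0.21 (limma, adjusted p = 0.207; exact permutation test, p = 2.06e-04), was lower in FF in 8 of 8 slides, and was at -0.64 without NF rabbit lap93 and -0.51 without NF rabbits lap80, lap93 and lap113. The T cell attractants CXCL9 (-0.88 ± 0.54) and CXCL10 (-0.91 ± 0.58) had wider errors, and CXCL9 was at -0.41 without NF rabbits lap80, lap93 and lap113. CCL7, a monocyte attractant outside the list, stood above background on 2 FF and 8 NF arrays, so that its -1.73 ± 0.68 rests on dim FF values. It was at -0.56 in the authors' table and -0.96 without NF rabbits lap80, lap93 and lap113.

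Cytotoxic lymphocyte genes had a median of -0.33, the lowest of the 42 lists, with 10 of 11 lower. Without genes that only the study's tables name, 6 of 7 lay lower and 0 were at an unadjusted p under 0.05. The median was then -0.29, against -0.30 for smooth muscle genes. With all 11 genes it was -0.24 without NF rabbit lap93 and -0.25 without NF rabbits lap80, lap93 and lap113. Of all 11, those at an unadjusted p under 0.05 were the granzyme GZMH (-1.39 ± 0.64), at 6.58 to 13.52 in FF and 8.12 to 13.82 in NF, and CD96, a receptor of T and NK cells (-0.60 ± 0.26). Their exact permutation p-values were 0.115 and 0.0810, and neither was at an unadjusted p under 0.05 without NF rabbit lap93. With rabbit lap78 added, GZMH was at -0.51 and CD96 at -0.11, and without NF rabbits lap80, lap93 and lap113 CD96 was at -0.27. The T cell co-receptors CD8A and CD8B were at 0.02 and -0.08. The list mean was -0.18 ± 0.46 (SD, n = 10) in FF and 0.20 ± 0.56 (n = 9) in NF, where NF rabbits lap93 and lap94 were the highest. T cell genes had a median of -0.14, with 0 of 16 at an unadjusted p under 0.05, and B cells and plasma cells -0.10, with 0 of 14, a value that was 0.10 with scaling to the 75th percentile and kept its sign in 5 of 14 other settings and 13 of 19 fits without a rabbit.

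The interferon-stimulated genes did not lie lower as a group. Of 32 measured, 17 lay lower (against 50.4% of all genes), with a median of -0.05 that turned to 0.02 with scaling to the 75th percentile. At an unadjusted p under 0.05, 2 were lower (against 4.01%): the ubiquitin-like UBD (-1.52 ± 0.73) and NMI (-0.40 ± 0.18). ISG15, another ubiquitin-like protein, was at 0.29 ± 0.60, and a single rabbit of each group stood far above the rest: the list mean was 1.71 in FF rabbit lap102 and 1.75 in NF rabbit lap94, and at most 0.31 and 0.38 in the others. Without both rabbits the median was -0.01. UBD was at -0.99 without NF rabbits lap80, lap93 and lap113.

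Upstream of these genes, TBK1, the kinase that activates interferon regulatory factors, lay at 8.17 to 8.70 in FF (median 8.30) and 8.26 to 9.05 in NF (median 8.69). Its log2 fold change was -0.33 ± 0.09 (limma, adjusted p = 0.263; exact permutation test, p = 0.00441), -0.33 without NF rabbit lap93 and -0.30 without FF rabbit lap102 and NF rabbit lap94. Its other probes gave less, -0.22 and -0.12. Of 13 interferon transcription factors and receptors 12 lay lower (median -0.18), IFNGR1, a chain of the interferon gamma receptor, at -0.18 ± 0.07 and IRF1 at -0.56 ± 0.28. IRF1 was at -0.37 without NF rabbit lap93 and at -0.20 without NF rabbits lap80, lap93 and lap113. The RNA sensors TLR3 and IFIH1 were at -0.40 ± 0.20 and -0.18 ± 0.18. RIGI (-0.06 ± 0.40), DHX58 (0.06 ± 0.27) and IRF7 (0.27 ± 0.51) changed sign in fits without a rabbit.

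**Figure D5:**
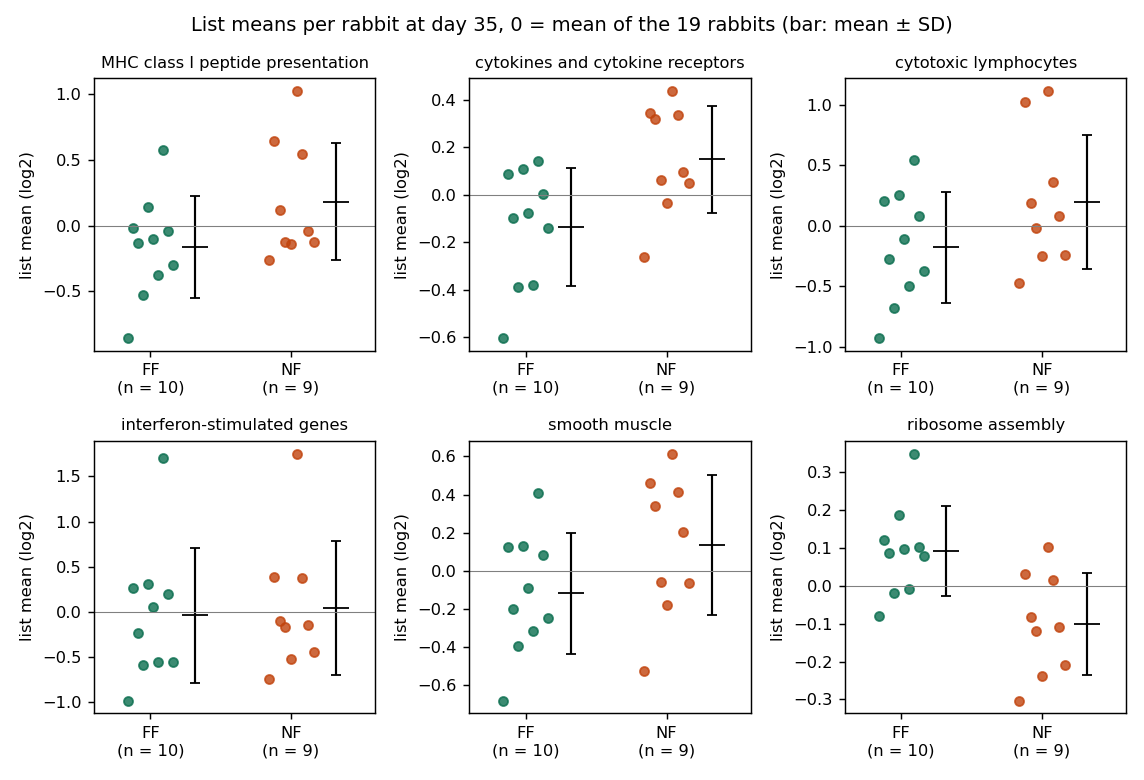
Mean of the genes of 6 lists in each of the 10 FF and 9 NF rabbits of day 35, each gene taken relative to its mean over the 19 rabbits (log2), with the mean and SD of the group. The groups overlap in all 6. FF rabbit lap102 (1.71) and NF rabbit lap94 (1.75) stand apart in interferon-stimulated genes, and all 10 FF rabbits lie above the NF median in ribosome assembly.

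Other defence genes gave single values. C3, the central complement protein, was at -0.84 ± 0.31 with 6 FF rabbits below every NF rabbit, and the membrane mucin MUC12 at -0.93 ± 0.29, lower in FF in 8 of 8 slides (exact permutation p = 0.00975 and 0.00429; limma, adjusted p = 0.402 and 0.300). PIGR, which carries IgA into the lumen, was at -0.33 ± 0.22 and REG3G, an antibacterial lectin, at -0.42 ± 0.77. Antimicrobial and Paneth cell genes had a median of -0.20 and IgA genes of -0.29, each with 0 members at an unadjusted p under 0.05. Without NF rabbit lap93 these medians were -0.19 and -0.22.

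Some muscle genes also lay lower in FF. Smooth muscle genes had a median of -0.30 with 10 of 14 lower (against 50.4% of all genes). Lower at an unadjusted p under 0.05 (against 4.01% of all genes) were the filament protein DES (-0.77 ± 0.29) and the actins ACTG2 (-0.71 ± 0.30) and ACTA2 (-0.47 ± 0.21). The list mean ranged from -0.69 to 0.41 in FF and from -0.53 to 0.62 in NF, and the lowest NF rabbit was rabbit lap93, without which the median was -0.38. With rabbit lap78 added it was -0.18. Of 14 striated muscle genes 9 lay lower and 5 higher, the myosin light chain MYL3 the highest at 0.86 ± 0.70 but at -0.21 without NF rabbits lap80, lap93 and lap113. The list median was -0.24, or -0.05 with rabbit lap78 added and -0.49 without those 3. ACTN2, an actin cross-linker, lay at 8.03 to 9.57 in FF (median 8.68) and 8.34 to 11.87 in NF (median 10.47), a log2 fold change of -1.56 ± 0.41 (limma, adjusted p = 0.178; exact permutation test, p = 0.00166). The creatine kinases CKM (-0.65 ± 0.31) and CKMT2 (-0.74 ± 0.32) were lower too at an unadjusted p under 0.05, with CKM at -1.01 without NF rabbits lap80, lap93 and lap113, and the troponin TNNC1 was at 0.10. The part of muscle content in the other differences was not tested.

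LAMB3 and LAMA3, which encode chains of the laminin that anchors epithelium, stood out in the matrix list, whose median was 0.00. LAMB3 lay at 9.90 to 11.77 in FF (median 10.64) and 11.28 to 12.41 in NF (median 11.66), and LAMA3 at 7.73 to 10.06 in FF (median 9.14) and 9.53 to 10.20 in NF (median 9.77). For each, 8 FF rabbits lay below every NF rabbit. The log2 fold changes were -0.99 ± 0.29 and -0.75 ± 0.24 (limma, adjusted p = 0.263 and 0.329; exact permutation p = 0.00162 and 0.00665), and -1.03 and -0.76 without NF rabbit lap93. COL7A1, the collagen of anchoring fibrils, was higher in FF, at 0.66 ± 0.24.

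Of the genes tied to low oxygen and glycolysis, 13 of 16 lay lower (median -0.15), against 50.4% of all genes, and 2 were lower at an unadjusted p under 0.05 (against 4.01%). The median was -0.09 without NF rabbit lap93 and -0.14 without NF rabbits lap80, lap93 and lap113. EGLN3, an oxygen-sensing hydroxylase, lay at 9.31 to 10.64 in FF (median 9.83) and 10.30 to 10.75 in NF (median 10.50). With 8 FF rabbits below every NF rabbit, its log2 fold change was -0.60 ± 0.18 (limma, adjusted p = 0.263; exact permutation test, p = 7.69e-04), and its other probe gave -0.39. Besides ANKRD37 no other member was at an unadjusted p under 0.05, and the glycolytic enzymes ENO1 and PKM were at -0.16 ± 0.09 and -0.09. The list mean of all 10 FF rabbits lay below the NF median.

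In the other direction, ribosome assembly genes lay higher in FF. This list, too, was chosen with earlier results of these data known, so its counts are descriptions. Of 25 measured, 24 lay higher, with a median of 0.20 within a narrow span (-0.02 to 0.34), and 10 were higher at an unadjusted p under 0.05 (against 3.67% of all genes), none after adjustment. GNL3, a nucleolar GTPase, lay at 12.60 to 13.14 in FF (median 12.87) and 12.31 to 12.76 in NF (median 12.61), with 7 FF rabbits above every NF rabbit. Its log2 fold change was 0.26 ± 0.09 (limma, adjusted p = 0.393; exact permutation test, p = 0.00108). UTP15 (0.30 ± 0.09) and NOP56 and NOP58 (0.30 ± 0.12 and 0.34 ± 0.15) act in early processing of ribosomal RNA, RRS1 (0.33 ± 0.11) and the methyltransferase NOP2 (0.26 ± 0.10) in building the large subunit, and POLR1B (0.23 ± 0.09) is a subunit of RNA polymerase I. The abundant nucleolar proteins NPM1 (-0.02 ± 0.15) and NCL (0.06 ± 0.12) were at about 0.

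Per rabbit, the mean of the ribosome list was -0.08 to 0.35 in FF (0.09 ± 0.12 SD, n = 10) and -0.30 to 0.10 in NF (-0.10 ± 0.13, n = 9). All 10 FF rabbits lay above the NF median, 4 above every NF rabbit, and FF was higher within 8 of 8 slides. The count at an unadjusted p under 0.05 was 13 without NF rabbit lap93, 10 without NF rabbits lap80, lap93 and lap113, and 8 to 13 over the settings run and the rabbits left out. At day 49 the list lay on the other side, at a median of -0.11 with 23 of 25 lower (against 53.3% of all genes). The difference between the ages was at an unadjusted p under 0.05 for 12 of 25 genes (against 4.54% of all genes), by 0.50 ± 0.13 for UTP15 and 0.59 ± 0.16 for RRS1. In FFab against NF, which shares the NF arrays, the median was 0.08.

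Of 9 measured genes of the unfolded protein response 7 lay higher (median 0.15), and 1 of them at an unadjusted p under 0.05 (against 3.67% of all genes). HSPA5, the chaperone BiP of the endoplasmic reticulum, lay at 12.38 to 13.41 in FF (median 12.96) and 11.64 to 13.06 in NF (median 12.31), was higher in FF in 8 of 8 slides and had a log2 fold change of 0.62 ± 0.17 (limma, adjusted p = 0.235; exact permutation test, p = 0.00500). Its 3 probes gave 0.62 to 0.65. PDIA4 (0.25 ± 0.14) and HSP90B1 (0.19 ± 0.11) did not reach an unadjusted p under 0.05.

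FGF19, the hormone that ileal cells release on bile acid uptake and that restrains bile acid synthesis in the liver, lay at 7.50 to 12.63 in FF (median 9.70) and 5.59 to 9.70 in NF (median 7.18), and 5 FF rabbits lay above every NF rabbit, although FF was higher in only 5 of 8 slides. The log2 fold change was 2.22 ± 0.55 (limma, adjusted p = 0.178; exact permutation test, p = 0.00756), against -0.75 ± 0.57 at day 49. Among NF rabbits lap83 was the lowest at 5.59 and lap79 next at 6.12, lap93 was at 6.40, and lap113 and lap80 were at 8.68 and 9.70. The log2 fold change was 2.07 without NF rabbit lap93 and 2.56 without NF rabbits lap80, lap93 and lap113. The FGF19 co-receptor KLB was at 0.26 ± 0.36, SREBF2, which drives cholesterol synthesis, at -0.47 ± 0.17 and ABCA1, which exports cholesterol, at 0.50 ± 0.23. SREBF2 was at -0.24 in the authors' table, and ABCA1 at 0.29 without NF rabbits lap80, lap93 and lap113. SREBF2 stood above background on 6 of 10 FF and 9 of 9 NF arrays, so its difference rests in part on dim FF values.

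The other genes with the highest fold changes were mostly dim in NF. CYP2A11, a drug-metabolizing P450, had a median of 6.93 in FF, where the highest rabbit reached 8.15, and of 3.13 in NF, where the highest reached 8.71, with 4 of 9 NF arrays above background, at 2.49 ± 0.65. It was at 1.53 without NF rabbits lap80, lap93 and lap113 and at 1.10 in the authors' table. NPL, which breaks down sialic acid (2.03 ± 0.49), the methyltransferase INMT (1.95 ± 0.56), the water channel AQP8 (1.82 ± 0.87), the kinase subunit PHKG1 (1.70 ± 0.50), antithrombin SERPINC1 (1.68 ± 0.80), the glutathione transferase GSTA5 (1.62 ± 0.47), the apolipoprotein APOA2 (1.61 ± 0.75) and CAPSL (1.49 ± 0.51) followed, all with limma's adjusted p between 0.178 and 0.624. These folds also depended on the processing and the probe. In the authors' table NPL was at 1.33, INMT at 1.21, PHKG1 at 1.02, SERPINC1 at 0.71 and CAPSL at 0.49, and the other probe of AQP8 gave 0.73. PHKG1 and CAPSL each stood above background on 3 of 9 NF arrays. SERPINC1 was at 1.06 without NF rabbits lap80, lap93 and lap113, and APOA2 at 0.99 with rabbit lap78 added.

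Of 11 genes of enteroendocrine hormones 6 lay lower, with a median of -0.08. Those at an unadjusted p under 0.05 were both higher, somatostatin (SST) at 0.43 ± 0.16 and peptide YY (PYY) at 1.11 ± 0.44, which was at 0.48 without NF rabbits lap80, lap93 and lap113. The neuropeptide precursor TAC1 was at -0.28 ± 0.15.

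At the low end, beside genes already given, stood ST3GAL4, a sialyltransferase (-1.13 ± 0.46, and -1.45 in FFab against NF), PFKFB1, a switch of glycolysis (-1.12 ± 0.36), LOC100346553 (-1.02 ± 0.37) and RHEBL1, a small GTPase (-0.99 ± 0.28), with limma's adjusted p between 0.257 and 0.488. PFKFB1 was at -0.53 without NF rabbits lap80, lap93 and lap113 and at -0.56 in the authors' table. RHEBL1 was at -0.39 in that table, and its other probes gave -0.53 to -0.61.

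Among lists of nutrient handling, the median was -0.09 for dietary fat absorption, -0.13 for sugars, 0.03 for peptides and amino acids, 0.14 for bile acids and cholesterol and -0.02 for enterocyte structure. For fat absorption it was 0.06 without NF rabbit lap93 and 0.31 without NF rabbits lap80, lap93 and lap113. In these 2 settings it was -0.03 and 0.06 for sugars and 0.05 and 0.11 for peptides and amino acids. For bile acids and cholesterol it was 0.18 and 0.14, and for enterocyte structure 0.03 and 0.06. Proliferation genes had a median of -0.08, with 0 of 29 at an unadjusted p under 0.05. It was -0.01 without NF rabbit lap93 and 0.02 without NF rabbits lap80, lap93 and lap113. Red blood cell genes lay at 0.32, or 0.17 without genes that only the study's tables name, pancreatic acinar genes at 0.05, and neurons and glia at 0.06.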

How the data were processed

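Total RNA of ileum had been labelled with Cy3 and hybridized to a custom Agilent rabbit array, 1 array per rabbit. The authors deposited the spot intensity of each array (Feature Extraction, 10.10.1.1 in the file headers and 10.7.3.1 in the submitters' processing notes), including a background-subtracted processed signal, and normalized log2 values of 33284 probes. Set against the spot files, the columns of these log2 values share a median of 8.78 and correlate with the values used at a median r of 0.989. How its background was treated is not given in the sources used here.

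The processed intensities were averaged over the spots of a probe (outlier spots left out), set to log2 and quantile normalized. Dim probes were dropped, so that 31722 remained, each with 50% or more of its spots flagged well above background in 75% or more of the arrays in some group. Each of 7974 genes was read from its probe of median level. Genes were named from the accession, gene identifier or gene name in the files, and 118 through tables of the study only. Next, limma 3.58.1 in R 4.3.3 (with statmod 1.5.0) fitted 1 mean per group over 56 arrays, with FF minus NF at day 35 as the contrast. A gene was called at a Benjamini-Hochberg adjusted p under 0.05 and a log2 fold change beyond 0.5. Errors are SE from limma unless given as SD. Exact permutation tests were two-sided over all 92378 arrangements of 10 and 9 rabbits, and their p-values are not adjusted.

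Genes described are those called, the 10 lowest and 10 highest fold changes at an unadjusted p under 0.05 with a probe above background on at least 50% of the 19 arrays, up to 4 members of smallest p in each of 42 lists, and genes named before. The members and lists were chosen with earlier results of these data known. List values are descriptions with no test. Arrays were scanned on 1 day, on 9 slides of 6 to 7 arrays. The number of arrays limits the precision. Alternatives covered the arrays fitted, slides, background, scaling, dim probes, choice of probe, array weights and each rabbit left out, and the steps were tested on simulated data.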

Additional observations from a re-analysis of the deposited data

Results flagged for a closer look

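The gap of an extreme rabbit to the next, as a share of the range of its group, passed Dixon's 95% value in 24 of 280 groups of values looked at (98 genes and 42 lists, in FF and in NF), where chance gives about 1 in 20. That rate is for independent groups, whereas these share the same rabbits, and many genes also enter the list means. FF rabbit lap102 was the high one for CXCL10 (0.508), IRF7 (0.691), DDX60 (0.471), RIGI (0.548) and the means of interferon-stimulated genes (0.520), sensors (0.469) and complement (0.627), and the low one for hypoxia and glycolysis (0.476). NF rabbit lap94 was the high one for IRF7 (0.691), ISG15 (0.533), DHX58 (0.749) CD8B (0.541) and the means of interferon-stimulated genes (0.550) and macrophages (0.548).

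For LRP2BP, a called gene, NF rabbit lap84 was the low one (0.494), at 5.16 with the next NF rabbit at 5.96. NF rabbit lap93 was the low one for FABP6 (0.844) and ST3GAL4 (0.645), and NF rabbit lap80 for TNNC1 (0.531). In FF, rabbit lap104 was high for SREBF2 (0.474), rabbit lap103 for GSTA5 (0.506) and rabbit lap88 for UTP15 (0.652), and rabbit lap82 was low for PFKFB1 (0.513), rabbit lap89 for the mean of macrophages (0.480) and rabbit lap88 for that of neutrophils and mast cells (0.519).

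In the array of rabbit lap78, which enters no comparison, the mean of the 4 pancreatic acinar genes lay 9.37 above the mean of the 19 rabbits on the log2 scale, where the 19 reached 0.97.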

How the results depend on the processing

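The number of genes called at day 35 was 0 with all 57 arrays, the slide as a fixed block, the authors' table, normexp, the median spot signal, scaling to the 75th percentile, no filter or a strict filter on dim probes and the brightest probe. It was 1 with the 19 arrays alone and with array weights, 3 with the slide as a random block or no minimum fold change, and 0 to 12 without 1 rabbit. Both settings added after the data were seen, without FF rabbit lap102 and NF rabbit lap94 and without NF rabbits lap80, lap93 and lap113, gave 0. The calls thus depend on the setting, while the 3 genes kept their direction in each setting that measured them (LSMEM1 was not measured under the strict filter). Unadjusted, 544 to 896 genes were at a p under 0.05 in the settings other than leaving out a single rabbit. In the authors' table the fold changes were -0.75 for LRP2BP and -0.88 for LSMEM1, and the cause was not tested. Fold changes near 0 turned sign. With all 57 arrays RIGI was at 0.074, NPM1 at 0.073, PKM at 0.026 and the pancreatic acinar list at -0.97. NPM1 was at 0.010 with the slide as a fixed block. In the authors' table CCDC110 was at -0.11, NPM1 at 0.027 and TNNC1 at -0.029. With normexp CCDC110 was at -0.064, CD8A at -0.0010, NPM1 at 0.0028 and TNNC1 at -0.025, and with the median spot signal CCDC110 was at -0.098, CD8A at -0.0027 and TNNC1 at -0.041. CD8B was at 0.0045 with scaling to the 75th percentile. KLB was at -0.30 with no filter on dim probes and -0.0061 with the brightest probe. With array weights NPM1 was at 0.034 and TNNC1 at -0.035. NCL was at -0.011 without FF rabbit lap102 and NF rabbit lap94. Without NF rabbits lap80, lap93 and lap113 B2M was at 0.015, CCDC110 at -0.062, PKM at 0.020, SLC10A2 at -0.63, TNNC1 at -0.23 and MYL3 at -0.21. Without 1 rabbit RIGI ranged from -0.27 to 0.14, IRF7 from -0.063 to 0.62, ISG15 from -0.0072 to 0.62 DHX58 from -0.063 to 0.22, CCDC110 from -0.096 to 0.18, CD8A from -0.058 to 0.076, CD8B from -0.11 to 0.0044, NPM1 from -0.071 to 0.046 and TNNC1 from -0.12 to 0.24. Of 3225 values of 98 genes, 3086 kept their direction and their side of the threshold, and 52 changed direction. Only 3 of these genes were called to begin with, so the others had no call to lose and this count is no measure of stability. Apart from fits without a single rabbit, the calls of DNAI7 and LRP2BP were each kept in 2 of 14 settings. That of LSMEM1 was kept in 1 of 13. Of 1428 list medians 84 had another sign. Signal over background limits dim genes: LSMEM1 stood above background on 1 of 10 FF arrays. Day 49 and the difference between the ages stayed at 0 calls in every setting run. No paired analysis was possible because each rabbit has a number of its own.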
